A study of Mus musculus with 6 samples.

Results

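Aquaporins are membrane channels that let water cross cells along osmotic gradients, and the aquaglyceroporins among them also pass glycerol and other small uncharged solutes. In liver, hepatocytes use Aqp8 at the canalicular membrane in bile formation and Aqp9 at the sinusoidal membrane to take up glycerol for glucose production. Aqp1 is the channel of bile duct epithelium, endothelium and red blood cells. Genes of the family were examined in the livers of mice that differ in Srf, which encodes a transcription factor of actin cytoskeleton and immediate early genes.

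Livers came from 6 male mice aged 3 weeks, 1 Affymetrix array each. The 3 controls were Srf loxP/+ with AlfpCre, and the 3 mutants were Srf loxP/loxP with AlfpCre, so that both groups carried the Cre transgene and the controls also had 1 loxP-flanked Srf copy. AlfpCre drives Cre recombinase from albumin regulatory sequences, which act in hepatocytes and their embryonic precursors. The family is represented by 7 genes, Aqp1, Aqp3, Aqp4, Aqp7, Aqp8, Aqp9 and Aqp11. Members were all probe sets annotated with exactly 1 gene symbol, that of one of these genes, which gave 16 of 45101 probe sets and 7 of 18193 genes with a single symbol. The family was selected on the mutant against control differences of these same arrays, in which that of Aqp8 was already known. The adjusted p-values below therefore place a probe set among all those tested and are no independent support for the choice.

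Values are signals on the log2 scale after the arrays had been brought to a common trimmed mean, with a floor that is 0 on that scale. Of the 16 probe sets, 9 from 5 genes passed the filter on dim signals and entered the limma fit with 27022 probe sets in all. The other 7, which include all probe sets of Aqp3 and Aqp7, are given as values with no test. The background level was taken from 80 probe sets of sensory receptors (olfactory, vomeronasal and bitter taste), and was 2.88 in controls and 3.07 in mutants. Levels are compared between arrays for 1 probe set at a time, since probe sets differ in how strongly they hybridise.

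The arrays differed in ways that bear on every comparison below. Across kept probe sets, correlations were 0.937 to 0.941 between controls and 0.827 to 0.907 between mutants. A 3'/5' index was formed from the array controls for Actb, Gapdh and Pcx, as the mean log2 ratio of 3' over 5' signal. It was 0.91, 0.78 and 1.22 in controls 1 to 3 and 2.18, 1.18 and 1.57 in mutants 1 to 3 (two-sided exact permutation p = 0.2, where 0.1 is the smallest that 3 against 3 arrays allow). A high index goes with shortened RNA. Srf itself (1418256_at) gave log2 signals of 5.31 in control 1, 5.14 in control 2 and 5.11 in control 3. The arrays labelled mutant 1, mutant 2 and mutant 3 read 4.17, 5.24 and 2.54, so that mutant 2 was not below the controls. The dimmer Srf probe set 1418255_s_at gave 3.00, 3.69 and 3.37 in controls 1 to 3 and 3.29, 0 and 1.99 in the mutants, with mutant 2 at the floor and mutant 1 among the controls. Neither passed (adjusted p = 0.398 and 0.411, limma). The sources used here do not place either probe set relative to the deleted part, so they do not check the labels. Hepatocyte RNA was plain on all arrays: the summed linear signal of 7 hepatocyte markers was 37288 to 42212 in controls and 47862 to 57155 in mutants. In whole liver, fewer cells of a type and less RNA per cell cannot be told apart.

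The sequences around the start sites of the hepatocyte channels are shown because the controls keep a Srf copy without loxP sites and the mutants do not, and because Aqp8 and Aqp9 are the members whose bright probe sets were lowest against controls. RefSeq windows (GRCm38.p6) of 250 bases before and 50 after a start were held for 6 of the 7 genes, in 8 windows. They were searched on both strands for the CArG box that SRF binds, which reads the same on both strands, for TATAAA, for the HNF1 half-site GTTAAT and for CCAAT. No matches of different motifs overlapped. The Aqp8 window, chr7:123462044-123462343 on the plus strand, held none of the 4, and the Aqp9 window at chr9:71163240-71163539 on the minus strand held a CArG box, in capitals.
Aqp8: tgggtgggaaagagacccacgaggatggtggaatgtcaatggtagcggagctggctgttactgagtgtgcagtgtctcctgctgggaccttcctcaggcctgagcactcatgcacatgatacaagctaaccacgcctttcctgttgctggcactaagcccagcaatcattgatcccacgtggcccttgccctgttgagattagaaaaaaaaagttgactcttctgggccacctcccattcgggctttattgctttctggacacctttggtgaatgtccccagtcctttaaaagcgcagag
Aqp9: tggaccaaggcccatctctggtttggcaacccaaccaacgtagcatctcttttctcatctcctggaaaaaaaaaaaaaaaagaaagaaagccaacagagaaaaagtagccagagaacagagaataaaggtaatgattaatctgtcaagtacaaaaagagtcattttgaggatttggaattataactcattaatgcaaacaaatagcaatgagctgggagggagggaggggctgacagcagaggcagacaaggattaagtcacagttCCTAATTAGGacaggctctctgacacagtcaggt
The Aqp9 match begins at base 17, counted from the start site as base 1. A CArG box was present in 1 of the 8 aquaporin windows and in 1.63% of all 32851 windows of this length. The second Aqp9 start, chr9:71162584-71162883, held no match. TATAAA occurred in 1 of the 8, that of Aqp3 (13.6% of all windows), and GTTAAT and CCAAT in 0 (7.1% and 37.4%). A match is a description of letters and shows no binding.

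Aqp8, the canalicular water channel of hepatocytes, fell in mutant liver. Its probe set 1417828_at gave 8.09, 8.54 and 8.55 in controls 1 to 3 and 4.35, 5.88 and 4.67 in mutants 1 to 3. On the linear scale the signals were 273, 373 and 376 against 20.4, 58.7 and 25.5. Every mutant lay at least 2.22 below the lowest control, and mutant 2 was the mutant nearest to the controls. The means were 8.40 ± 0.26 and 4.97 ± 0.80 (SD, n = 3), a log2 difference of -3.43 (SE 0.41, 95% interval -4.37 to -2.49, adjusted p = 0.0425, limma), or 10.8-fold lower. All 6 arrays read above background, so the fold is not set by the floor.

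**Figure D1:**
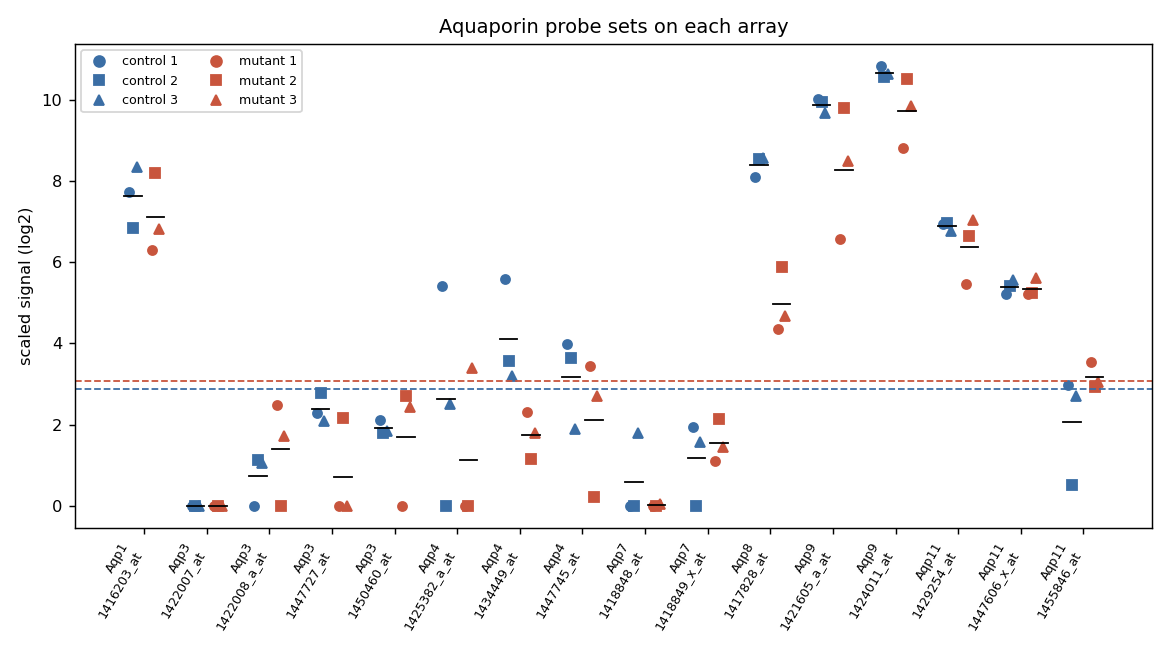
Scaled log2 signal (vertical axis) of the 16 aquaporin probe sets (horizontal axis) on the 3 control (blue) and 3 mutant (red) arrays, 1 symbol per replicate number, with group means as black bars and the background level of each group as a dashed line. Aqp8 is the bright probe set whose groups are widely apart, from 8.09 to 8.55 in controls and from 4.35 to 5.88 in mutants, while all Aqp3 and Aqp7 points lie below both dashed lines.

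Of the 9 aquaporin probe sets tested, Aqp8 was the 1 that passed. Over all probe sets, 0.074% passed in either direction and 0.0592% passed as lower, and nothing is read from that contrast because it was known when the family was chosen. By size, the Aqp8 difference ranked 99 from the lowest of 27022, and by p it ranked 19. The median difference over all tested probe sets was 0.08.

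The Aqp8 difference had the same direction in all 15 alternative settings, but its adjusted p moved across the threshold. With dim probe sets kept in the fit it was 0.248. It was 0.158 without a trend in the variance prior, 0.106 with a floor of 16 and 0.250 with the 3'/5' index as a covariate (limma). It was 0.284 when control 1 was left out, 0.317 for control 2, 0.174 for control 3 and 0.195 for mutant 3. The log2 differences in these settings lay between -3.58 and -2.65.

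**Figure D2:**
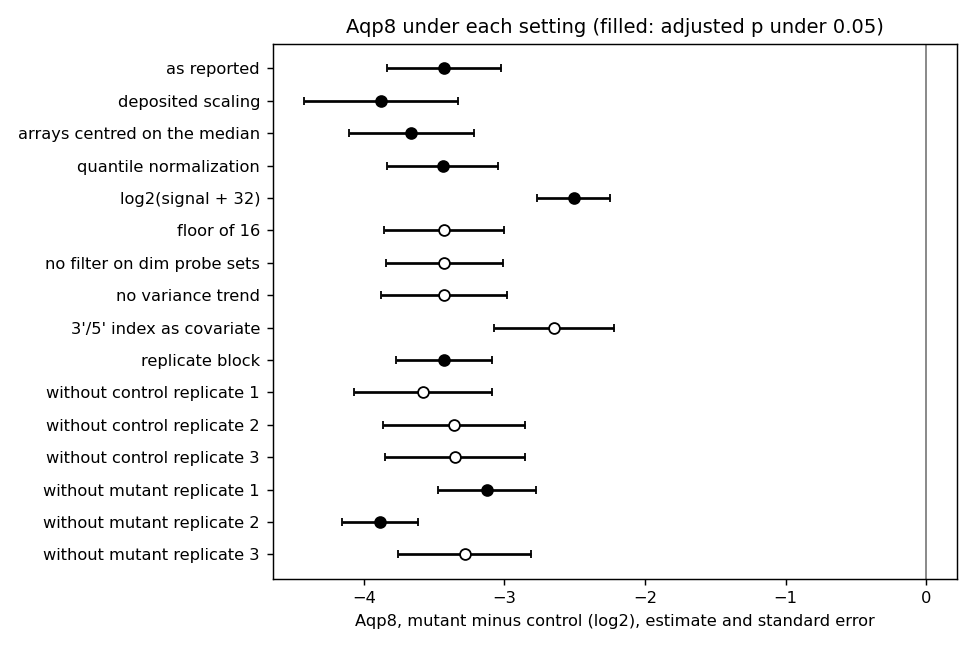
Mutant minus control difference of Aqp8 on the log2 scale (horizontal axis, point and standard error) as reported and under each of 15 alternative settings (vertical axis), with filled points where the adjusted p was under 0.05. All points lie between -3.88 and -2.51, and 7 of the 15 alternatives passed.

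Arrays with nearly the same 3'/5' index can be set side by side. Control 3 and mutant 2 had indices of 1.22 and 1.18. On these arrays Aqp8 read 8.55 and 5.88, a difference of -2.68, or 6.40-fold lower in mutant 2. The same pair of arrays differed by 0.11 and -0.12 for the Aqp9 probe sets, by -0.14 for Aqp1 and by -0.11 and -0.32 for the brighter Aqp11 probe sets. Aqp4 also read lower in mutant 2, with differences of -2.03 on 1434449_at, -1.67 on 1447745_at and -2.51 on 1425382_a_at. Mutant 2 was below background on each of these, and control 3 was above background on 1434449_at only. These are single arrays, set side by side after the values were seen, and the differences have no replicate check.

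Aqp9, the glycerol channel of the sinusoidal membrane, was lower in mutants 1 and 3 and near the controls in mutant 2, and did not pass. Its brighter probe set 1424011_at gave 10.83, 10.55 and 10.62 in controls 1 to 3 and 8.80, 10.50 and 9.84 in the mutants. The groups did not overlap, but mutant 2 was only 0.05 below the lowest control. Groups did not overlap with mutants lower for 3 of the 9 tested aquaporin probe sets, those of Aqp8, Aqp9 (1424011_at) and Aqp4 (1434449_at), and for 9.36% of all tested probe sets. The log2 difference of 1424011_at was -0.95 (SE 0.40, adjusted p = 0.359, limma).

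The other Aqp9 probe set, 1421605_a_at, gave 10.02, 9.94 and 9.67 in controls and 6.56, 9.78 and 8.48 in mutants. Here mutant 2 lay inside the control range and mutant 1 was 3.32 below the control mean. The log2 difference was -1.60 (SE 0.69, adjusted p = 0.362, limma), without mutant 1 it was -0.74 (adjusted p = 0.396) and without mutant 2 it was -2.35 (adjusted p = 0.0699). For 1424011_at the difference was -0.49 without mutant 1 and -1.34 without mutant 2 (adjusted p = 0.378 and 0.0825, limma). With the index as a covariate the sign turned, to 0.010 for 1424011_at and 0.30 for 1421605_a_at (adjusted p = 0.997 and 0.943). Macrophages, another liver cell type, had a summed signal of 8 markers of 1324 to 1907 in controls and 818, 1481 and 948 in mutants 1 to 3, and their part in the Aqp9 values was not tested.

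**Figure D3:**
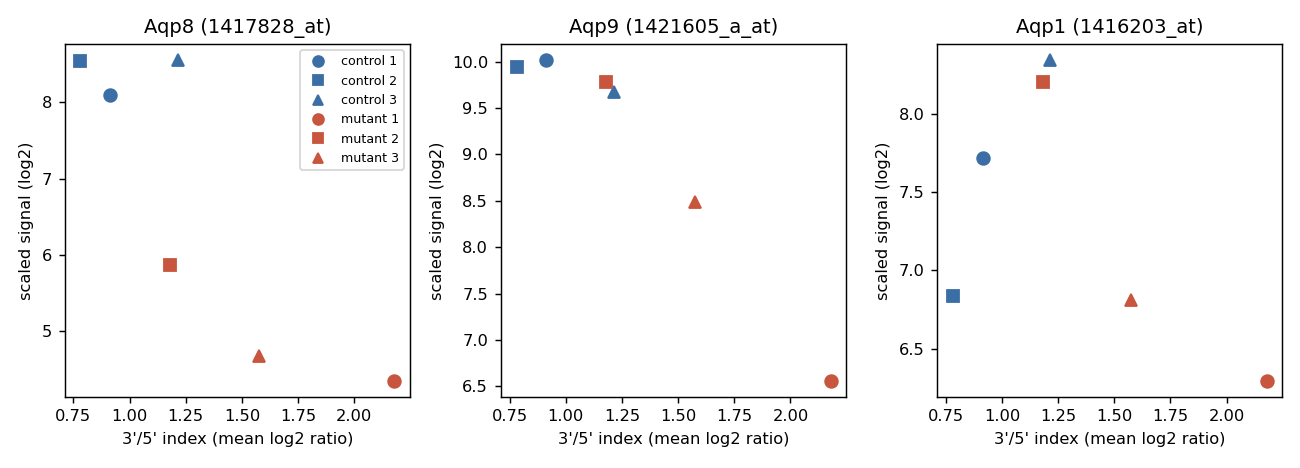
Scaled log2 signal (vertical axes, each to its own range) of Aqp8, Aqp9 and Aqp1 probe sets against the 3'/5' index (horizontal axes, mean log2 ratio) on the 3 control (blue) and 3 mutant (red) arrays. Mutant 2 and control 3, at nearly the same index, read 9.78 and 9.67 for Aqp9, 8.20 and 8.34 for Aqp1 and 5.88 and 8.55 for Aqp8.

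Aqp11, a channel of intracellular membranes, did not differ in a way that its 3 probe sets shared. The probe set 1429254_at gave 6.95, 6.96 and 6.77 in controls and 5.47, 6.65 and 7.03 in mutants, so that mutant 1 was low and mutant 3 was the highest of all arrays. Its log2 difference was -0.51 (SE 0.40, adjusted p = 0.540, limma), and 0.28 with the index as a covariate (adjusted p = 0.948). The probe set 1447606_x_at, of a type that can also detect related transcripts, gave 5.23, 5.41 and 5.56 in controls and 5.21, 5.23 and 5.61 in mutants. Its difference of -0.05 had a 95% interval of -0.66 to 0.57 (adjusted p = 0.942, limma), so a change of the size seen for Aqp8 lay outside the interval. The dim probe set 1455846_at read between 0.51 and 2.98 in controls and between 2.94 and 3.55 in mutants (1.12, SE 0.75, adjusted p = 0.484, limma). Its control mean of 2.06 lay under the filter threshold of 2.10, so it entered the fit through the mutants.

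Aqp1, the water channel of bile duct epithelium, endothelium and red blood cells, overlapped between the groups. The probe set 1416203_at gave 7.72, 6.84 and 8.34 in controls 1 to 3 and 6.30, 8.20 and 6.81 in the mutants. The controls themselves were far apart, and mutant 2 lay among them. The log2 difference was -0.53 (SE 0.55, 95% interval -1.79 to 0.73, adjusted p = 0.640, limma). It was 0.14 with the index as a covariate (adjusted p = 0.984) and -1.08 without mutant 2 (adjusted p = 0.198).

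Markers of the cells that carry Aqp1 varied between arrays. The summed signal of 8 endothelial markers was 588, 566 and 656 in controls 1 to 3 and 362, 952 and 510 in mutants 1 to 3. From high to low, these sums had the array order of Aqp1, except that mutant 2 stood before control 3. The summed signal of 4 erythroid markers was 260, 518 and 316 in controls 1 to 3 and 59.3, 390 and 64.9 in the mutants. Among the controls the erythroid sum was highest in control 2, which had the lowest Aqp1. Among the mutants the erythroid sum and Aqp1 had the same order, with mutant 2 highest and mutant 1 lowest. Array differences in that sum came mostly from Alas2, the erythroid enzyme that starts heme synthesis. The sum therefore does not stand for all 4 markers. By log2 difference Alas2 had -2.97, against -0.73 for Slc4a1, -0.09 for Rhag and 0.09 for Klf1. Among the mutants Slc4a1 had the order of the sum and Klf1 the reverse. Rhag was above background on 1 of the 6 arrays. None of the endothelial or erythroid markers passed the test (limma). Only 1, Alas2, had an unadjusted p under 0.05, against 13.8% of all probe sets. Without mutant 2 Alas2 passed, at -4.53 (adjusted p = 0.0141, limma). Cholangiocyte markers were near background, at 33.9 to 36.7 in controls and 39.2, 59.4 and 62.6 in mutants 1 to 3, summed over 4 kept genes of 6 on the array. The part of these cell types in the Aqp1 values was not tested.

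Aqp4, the water channel known from astrocyte end feet and skeletal muscle, was dim. The probe set 1434449_at gave 5.58, 3.56 and 3.19 in controls and 2.31, 1.16 and 1.79 in mutants, all mutants below all controls. Its log2 difference was -2.35 (SE 0.72, adjusted p = 0.301, limma) and did not pass. The mutant mean of 1.76 was below background and under the filter threshold, so this probe set entered the fit through the controls. The control mean was 2.06-fold above the mutant background level, or 1.24-fold without control 1. These are lower bounds for the fold between the groups. Control 1 was the highest array on all 3 Aqp4 probe sets. Without control 1 the difference was -1.62 (adjusted p = 0.681), and it was -0.53 with a floor of 16 (adjusted p = 0.563).

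The other Aqp4 probe sets were split. The probe set 1447745_at gave 4.0, 3.64 and 1.90 in controls and 3.43, 0.23 and 2.71 in mutants, overlapping (-1.05, SE 0.96, adjusted p = 0.594, limma). The probe set 1425382_a_at, which did not pass the filter, gave 5.41, 0 and 2.51 in controls and 0, 0 and 3.39 in mutants. Signals of 0 are at the floor and have no order. Of 6 astrocyte and muscle markers on the array 3 were kept and none passed (limma). An unadjusted p under 0.05 was reached by 1, against 13.8% of all probe sets. The log2 differences were 1.01 for the glutamate transporter Slc1a2, 1.45 for the muscle actin Acta1 and -1.14 for the astrocyte filament gene Gfap. The summed signals of the 3 were 119 to 229 in controls and 266 to 390 in mutants, and came mostly from Slc1a2. It read 7.10, 6.63 and 7.75 in controls 1 to 3 and 7.96, 8.55 and 8.02 in mutants 1 to 3. Acta1 and Gfap read at most 3.99 and were each at the floor on 1 array, so the sums are no measure of astrocytes or muscle. The part of the 3 markers in the Aqp4 values was not tested.

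Aqp3 and Aqp7 are aquaglyceroporins, of epithelia such as skin and kidney and of fat cells. Neither was measured above background on any array. The 4 Aqp3 probe sets read at most 2.79, in control 2 on 1447727_at, and 1422007_at was at the floor on all 6 arrays. The 2 Aqp7 probe sets read at most 2.13, in mutant 2 on 1418849_x_at, and 1418848_at was at the floor on 4 of the 6 arrays. No fold is given for either gene. Of 5 adipocyte markers on the array 2 were kept, with summed signals of 114 to 137 in controls and 104 to 153 in mutants.

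**Figure D4:**
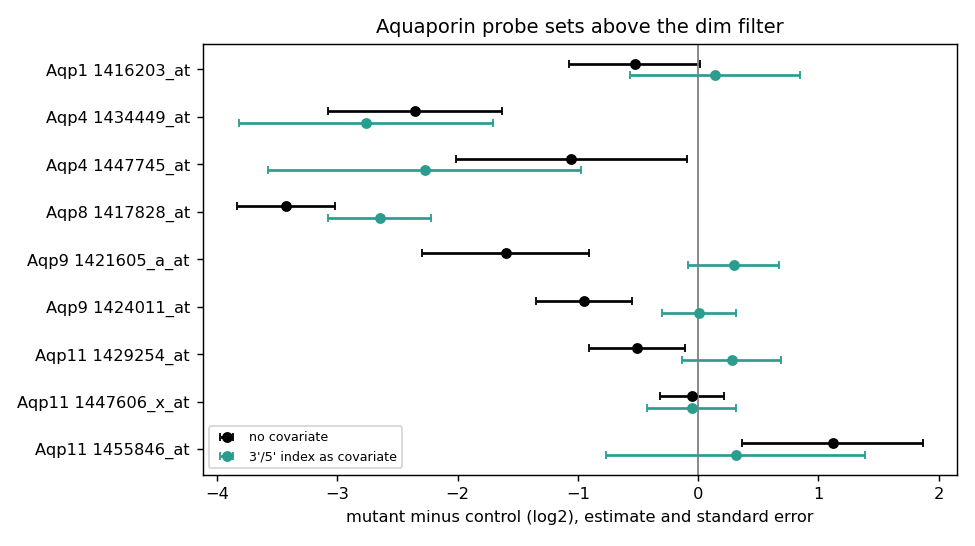
Mutant minus control difference on the log2 scale (horizontal axis, point and standard error) of the 9 aquaporin probe sets above the dim filter (vertical axis), without a covariate (black) and with the 3'/5' index as a covariate (green). With the covariate Aqp8 went from -3.43 to -2.65 and no longer passed (adjusted p = 0.250), and the Aqp9 probe sets went from -1.60 to 0.30 and from -0.95 to 0.010.

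Over the 9 tested probe sets, 8 had a negative difference, against 45.2% of all tested probe sets, with a median of -0.95. These counts describe probe sets that share genes and arrays and that include 1 entered through each group, so they carry no test. The remaining aquaporins Mip, Aqp2, Aqp5, Aqp6 and Aqp12, channels of lens, kidney, glands and pancreas, had 4 genes kept. None of the 4 passed (limma), where 0.114% of all genes passed. An unadjusted p under 0.05 was reached by 0, against 13.8% of all probe sets. For 2 of the 4 both group means were at or below background. The median difference of the 4 was 0.16 beside 0.06 over all 13144 genes. Their brightest probe sets read at most 4.07, for Aqp6 in mutant 3.

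The genes whose profile lay nearest to Aqp8 were compared by the root mean square difference of the 6 arrays' deviations from the control mean. The deviations were not scaled, so a near gene must have a drop of about the size of that of Aqp8. The nearest of 13143 genes was Nsdhl, a sterol dehydrogenase of cholesterol synthesis, at 0.30. The median over all genes was 2.55, which depends on the size of the Aqp8 drop and is no measure of chance. Its control arrays read 9.32, 10.13 and 9.39 and its mutant arrays 5.11, 7.28 and 5.72 (adjusted p = 0.0757, limma). Next came Cdca3, a cell division gene, at 0.41, and Cyp51, the lanosterol demethylase, at 0.42 (adjusted p = 0.0681 and 0.0458, limma). The Cdca3 mutant mean of 2.63 was below background, so the size of its drop is uncertain. 1810008I18Rik followed at 0.44 and Cmah, a hydroxylase of sialic acid synthesis, at 0.46 (adjusted p = 0.0921 and 0.112). All 5 had mutant 2 as the mutant nearest to the controls, which follows from their choice by likeness to Aqp8. Among the aquaporins themselves, the nearest was Aqp4 at 1.41, ranked 373, with its mutant mean below background. Aqp9 was at 1.78, ranked 997.

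**Figure D5:**
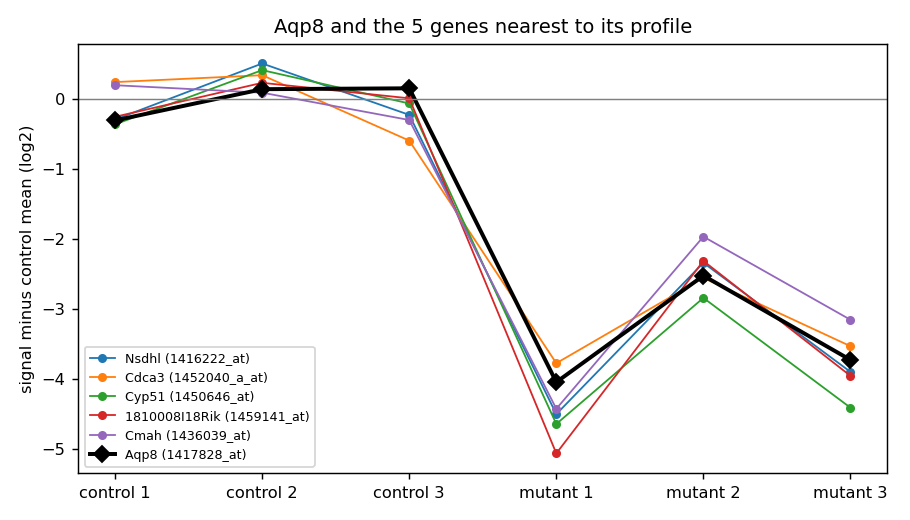
Signal minus the gene's control mean on the log2 scale (vertical axis) on each of the 6 arrays (horizontal axis) for Aqp8 (black) and the 5 genes nearest to its profile (colours), 1 line per gene. Aqp8 lies at -4.04, -2.52 and -3.73 in mutants 1 to 3, and all 6 genes are least far below 0 in mutant 2.

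Transporters of bile formation work beside Aqp8, since bile acids and other solutes pumped into the canaliculus draw water after them. None of 14 passed (limma; 5 at an unadjusted p under 0.05), where 0.114% of all genes passed and 13.8% of all probe sets had an unadjusted p under 0.05. They had a median log2 difference of -0.61 beside 0.06 over all genes. The sinusoidal organic anion carrier Slco1a1 was at 10.11, 8.06 and 4.30 in the controls, which were far apart. Its mutants read 2.35, 0.62 and 2.50, all below background (adjusted p = 0.214, limma). Its relative Slco1a4 had a positive difference of 1.55 (SE 0.43, adjusted p = 0.285), and passed without mutant 1 at 2.03 (adjusted p = 0.0254, limma). The efflux pump Abcg2 had -1.15 (adjusted p = 0.336) and Rdx, which encodes radixin of the canalicular membrane, -0.61 (adjusted p = 0.336). The bile salt export pump Abcb11 read 9.91, 10.18 and 10.28 in controls and 7.44, 10.87 and 9.85 in mutants, so that mutant 2 was above every control while its Aqp8 was below every control.

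Glycerol that enters through Aqp9 is phosphorylated and oxidised before it becomes glucose. Of 9 kept genes of glycerol release and use, none passed (limma). An unadjusted p under 0.05 was reached by 4, against 13.8% of all probe sets. The median difference was -0.61 beside 0.06 over all genes. Gpd2, the mitochondrial glycerol phosphate dehydrogenase, gave 9.35, 9.11 and 9.32 in controls and 8.64, 8.59 and 8.66 in mutants, close together within each group (-0.63, adjusted p = 0.308). The cytosolic enzyme Gpd1 had -1.30 and the glyceraldehyde kinase Tkfc -1.25 (adjusted p = 0.362 and 0.359). Pnpla2, the lipase that starts triglyceride breakdown, had 1.76 (adjusted p = 0.341), with mutant 1 highest at 10.87.

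Urea and ammonia, small solutes that Aqp9 and Aqp8 can conduct, are handled by the enzymes of the urea cycle and its neighbours. None of 9 kept genes passed (limma). An unadjusted p under 0.05 was reached by 4, against 13.8% of all probe sets. The median difference was 0.38 beside 0.06 over all genes. Ass1 had 1.41, Asl 0.87, Nags 0.54 and Cps1 0.50 (adjusted p = 0.167, 0.330, 0.350 and 0.354, limma), all enzymes of the urea cycle or its activator. The Ass1 probe set was dim, at 4.75, 4.42 and 4.96 in controls 1 to 3 and 6.43, 5.85 and 6.07 in mutants 1 to 3. For Otc, the ornithine transcarbamylase, the counted probe set had -1.51 (adjusted p = 0.436, limma). On it mutant 2 lay inside the control range and mutant 1 was 3.91 below the control mean. A dimmer Otc probe set than the one counted passed without mutant 2, at -2.40 (adjusted p = 0.0489, limma). Of the regulators of hepatocyte genes, none of 11 passed (limma), and 2 had an unadjusted p under 0.05, against 13.8% of all probe sets. Their median difference was -0.08 beside 0.06 over all genes. The insulin receptor substrate Irs2 had 1.72 and the insulin-restrained factor Foxo1 0.68 (adjusted p = 0.326 and 0.353, limma). Irs2 was dim, at 3.81, 3.50 and 3.40 in controls, whose background was 2.88. Its mutants 1 to 3 read 6.76, 4.68 and 4.44, with mutant 1 far above the others. Nr3c1, the glucocorticoid receptor, had -0.49 and Insr, the insulin receptor, 0.45 (adjusted p = 0.427 and 0.449).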

How the data were processed

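Liver RNA of 3 control and 3 mutant mice was measured on 1 array each. The deposited table holds 1 linear intensity per probe set and array. Per the submitters' processing notes the scanner software was GCOS; its algorithm, version and scaling are unstated there. Arrays were grouped by title. The labels call the samples separate mice, and no batch or scan date is given.

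The trimmed mean signal (2% off each end) was 37.3 to 69.9, so arrays were multiplied to a common trimmed mean, with a floor of 1 before the log2 transform. Of 45037 probe sets, the dimmest 40% by mean over the arrays were left out. Mutant and control were compared with limma 3.58.1 in R 4.3.3 (lmFit, eBayes with trend, two-sided, Benjamini-Hochberg over 27022 probe sets, threshold 0.05), a step tested on simulated data. Of the probe sets, 34945 had 1 gene symbol, 932 several and 9160 none listed. For 34741 the symbol was taken from the RefSeq gene list by Entrez identifier, whether or not it differed. Genes outside the family were represented by their brightest kept probe set. Background is the 95th percentile of 80 receptor probe sets. The number of arrays limits the precision.

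Named genes are every aquaporin probe set, up to 4 genes with the smallest adjusted p of each pathway list, and the 5 genes nearest to Aqp8. Abcb11, Otc and the marker gene Alas2 were named after their values were seen. The members and lists were chosen with earlier results of these data known. Listed genes with no single-symbol probe set were left out. Replicate numbers are in the titles; same-numbered control and mutant arrays had correlations of their deviations between -0.04 and 0.04, so the numbers were not taken as pairs.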

Additional observations from a re-analysis of the deposited data

How the results depend on the processing

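The number of arrays limits all calls. Among 15 alternatives, counting each array left out, Aqp8 was lower in all 15 and passed in 7. No aquaporin probe set passed, a count of 0 (limma; 1, 2, 2 and 2 at an unadjusted p under 0.05), with a floor of 16, without the dim filter, without the variance trend and with the 3'/5' index as covariate; there Aqp8 had -3.43, -3.43, -3.43 and -2.65. With 1 array left out the count was 0 to 1 and Aqp8 had -3.88 to -3.12. Over all probe sets 20 passed (16 lower, 4 higher), against 35 on the deposited scaling (32 lower, 3 higher), 107 after log2(signal + 32), 9 with a floor of 16, 0 without the filter (4704 at an unadjusted p under 0.05), 9 without the trend, 5 with the covariate and 2 to 576 with 1 array left out. The median of all probe sets was -0.37 on the deposited scaling and -0.16 with arrays centred on the median. With the covariate the sign turned for Aqp1 (0.14), Aqp9 (0.30 and 0.010) and Aqp11 1429254_at (0.28); the cause was not tested. Aqp11 1447606_x_at, at -0.05, ranged from -0.18 to 0.031 with 1 array left out, above 0 without control 3, mutant 1 or mutant 2. Of the bile formation genes 0 to 1 passed with 1 array left out. With the replicate number as a block Aqp8 had an adjusted p of 0.0473 and 22 probe sets passed, and no aquaporin call changed; the numbers are no pairing.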

Other observations

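One dim probe set of Aqp6, 1459982_a_at, had mutants all below controls, at 0.36, 0.10 and 0.55 against 1.51, 2.30 and 3.15. It lay under the filter threshold and was not tested, and its other kept probe sets overlapped between the groups. It was chosen after its values were seen.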
